A study of Homo sapiens with 3 samples.

Results

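The genes described here encode the mitochondrial carrier family, SLC25, together with the uncoupling proteins that belong to it. They were taken by symbol, as every row named SLC25A followed by a number or UCP1, UCP2 or UCP3, and 41 of the 16149 genes listed in any library met this rule. The mRNA of 3 cultured cell lines was sequenced, with 1 library each. The parent is HCCLM3, a human hepatocellular carcinoma line, which the study used in a derivative expressing red fluorescent protein, HCCLM3-R. Subclone 1 carries the label of a raised, lung-specific metastatic ability, and subclone 2 of a tendency to spread to lung and celiac lymph node, while the label of the parent gives it a low metastatic ability and the methods of the study a high metastatic potential. According to the study, its subclones were each grown from a single cell of a line made from a metastasis in nude mice, and which of its clones were sequenced is not stated in the sources used here. A subclone thus stands for 1 clone. All 3 lines were grown in DMEM medium without any treatment. Because there was 1 library per line, no difference between lines was tested, and the intervals below compare libraries only.

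Carriers of this family sit mostly in the inner mitochondrial membrane, which is otherwise closed to charged metabolites. Each moves a small set of substrates, such as nucleotides, phosphate, amino acids, di- and tricarboxylates, carnitine esters, vitamins or iron, often by exchanging one for another. They are encoded in the nucleus, made in the cytosol and inserted through the translocases of the outer and inner membranes. In liver cells they link the urea cycle, gluconeogenesis, fatty acid synthesis and heme synthesis to the mitochondrial matrix.

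Levels are given as RPKM (reads scaled for gene length and library depth), so that levels can be compared between genes. The whole reads behind each RPKM were recovered from the values, with totals of 4488825 reads in parent cells, 4609696 in subclone 1 and 4725150 in subclone 2, and of these the carriers held 12321, 11660 and 12575 reads. Of the 14 hepatocyte markers examined, 12 were listed in at least 1 library. KRT8, an epithelial keratin, was between 1614 and 1742 RPKM and HNF4A, a hepatocyte transcription factor, between 11.7 and 16.0 RPKM, whereas APOA1, SERPINA1 and TTR stayed below 1 RPKM in every library. ALB, the albumin gene, was at 2.46 RPKM in parent cells, 49.5 in subclone 1 and 68.8 in subclone 2. The changed markers did not share this order. APOB was at 0.300, 1.23 and 4.17 RPKM, whereas FGB was at 1.66, 14.5 and 5.60 RPKM and TF at 5.71, 30.3 and 5.88 RPKM. The summed level of the fibroblast markers, of which 6 of 8 were listed, was 15.7, 31.2 and 24.3 RPKM in the same order, most of it from LUM, and COL1A1 was at 0.338, 0.403 and 0.0357 RPKM and COL1A2 at or below 0.0412 RPKM. COL3A1, a fibroblast collagen, went the other way, at 4.42, 2.21 and 0.463 RPKM. The endothelial markers summed to 5.06, 11.9 and 7.58 RPKM, the leukocyte markers to 0.331, 1.04 and 0.108 RPKM and the muscle markers to 0.895, 0.462 and 0.307 RPKM, and neither brown fat marker was listed. The part of these marker differences in the carrier values was not tested, and in bulk RNA fewer cells of a type cannot be told apart from less RNA per cell.

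Of the 41 carriers, 39 were listed in parent cells, 41 in subclone 1 and 40 in subclone 2. A mean of at least 1 RPKM over the libraries was required for the comparisons, which 33 carriers and 11370 of all genes met, and each of the 33 had at least 1.04 RPKM in every library. Their median level was 13.4 RPKM in parent cells, 10.8 in subclone 1 and 12.6 in subclone 2, against 10.8, 10.9 and 11.2 RPKM over all genes that met the filter. The family spanned a wide range, from SLC25A5 with 420 to 505 RPKM down to UCP3 with 1 read in 1 library. The sum over the 41 carriers was 1489 RPKM in parent cells, 1341 in subclone 1 and 1442 in subclone 2, and most of it came from SLC25A5, SLC25A3 and SLC25A6.

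**Figure D1:**
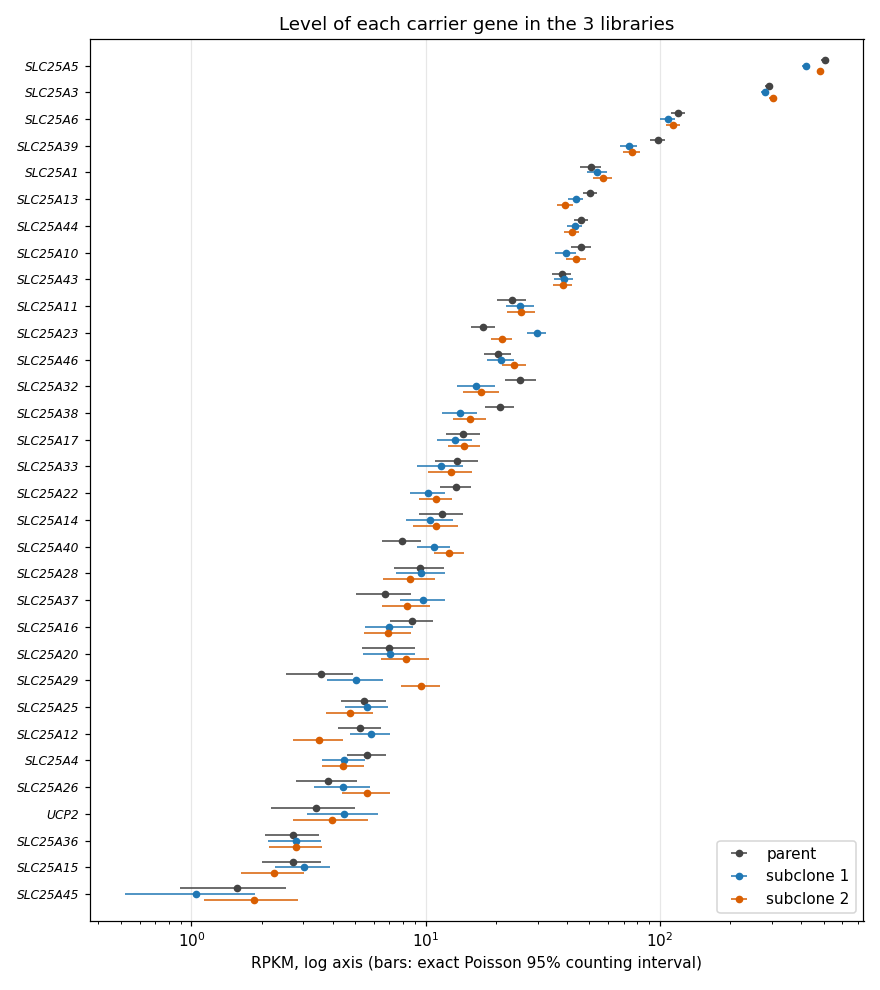
Levels of 32 carrier genes with a mean of at least 1 RPKM, ordered by mean, on a log axis in RPKM. Points are the 3 libraries (1 per cell line) and bars are exact Poisson 95% intervals, which cover counting error only. The points of most genes lie close together, and SLC25A29 spreads from 3.57 RPKM in the parent to 9.55 RPKM in subclone 2.

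The ratios between libraries were small for most of the family. The difference between lines is given as a fold with its exact 95% interval from the reads, or as log2 of RPKM plus 0.1 in one library over the other, which understates changes of low genes, and the threshold of 1.5-fold was applied on the latter scale. In subclone 1 over the parent, 1 of 33 carriers (SLC25A23) was at least 1.5-fold higher, a call that 11.6% of all genes met, and 2, among them SLC25A32, were at least 1.5-fold lower, which 7.46% of all genes met. In subclone 2 over the parent, 2 carriers (SLC25A29 and SLC25A40) were at least 1.5-fold higher and 0 lower, against 12.7% and 7.3% of all genes. In subclone 2 over subclone 1, 3 carriers, among them SLC25A29 and SLC25A45, were higher and 1 (SLC25A12) was lower by this threshold, against 4.75% and 4.11% of all genes. SLC25A29 was the only 1 of the 33 carriers at least 2-fold apart on this scale in any of the 3 comparisons, in subclone 2 over the parent, where 5.33% of all genes were at least 2-fold higher and 2.16% lower. For subclone 1 over the parent 0 carriers were at least 2-fold higher or lower, against 4.9% and 1.82% of all genes, and between the subclones 0 were, against 1.42% and 1.39%. Both comparisons with the parent share that library, so they are not independent of each other.

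The median log2 ratio of the 33 carriers was -0.06 in subclone 1 over the parent, where all genes had a median of 0.00, and it lay between -0.19 and -0.04 under the 5 other scalings of the libraries. In subclone 2 over the parent it was -0.07 against 0.04 for all genes, with -0.11 to -0.01 under the other scalings. Between the subclones it was 0.07 in subclone 2 over subclone 1 against 0.03 for all genes, with 0.02 to 0.20 under the other scalings. The highest library exceeded the lowest by a median of 1.26-fold over the 33 carriers and of 1.30-fold over all genes. The log2 ratios reached at most 0.75 in subclone 1 over the parent, ran from -0.57 to 1.39 in subclone 2 over the parent and from -0.72 to 0.91 between the subclones.

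**Figure D2:**
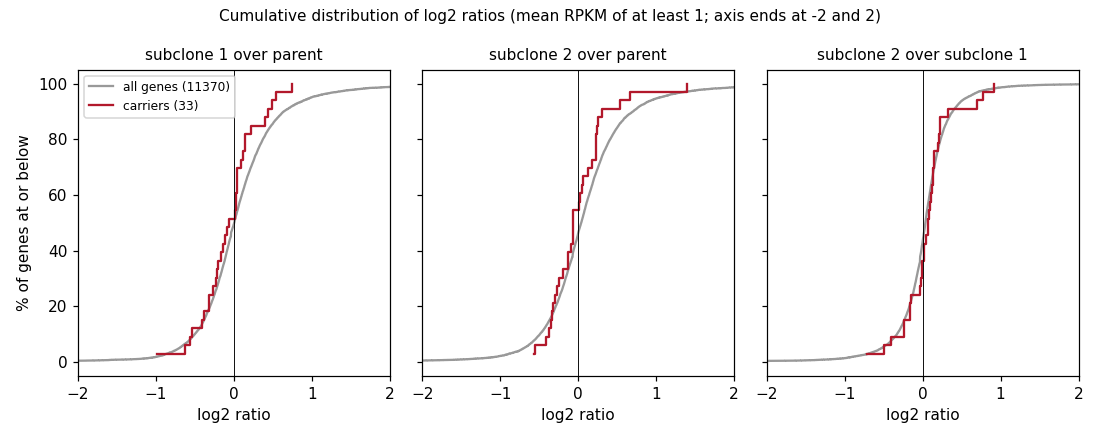
Cumulative distribution of the log2 ratio of RPKM plus 0.1 (x axis) for 33 carriers (red) and 11370 genes (grey), as percent of genes at or below each ratio (y axis), in the 3 comparisons. The curves lie close to each other near 0, with medians of -0.06 and 0.00, -0.07 and 0.04, and 0.07 and 0.03, and the red curves end at 0.75, 1.39 and 0.91.

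A second reading asks whether the 95% counting interval of the fold excludes 1, which genes with many reads meet at smaller folds. In subclone 1 over the parent, 3 carriers (SLC25A23, SLC25A37 and SLC25A40) were higher and 8 (among them SLC25A5, SLC25A10, SLC25A13, SLC25A22, SLC25A32, SLC25A38 and SLC25A39) lower in this sense, while 19.9% and 19% of all genes were. In subclone 2 over the parent, 3 carriers (SLC25A23, SLC25A29 and SLC25A40) were higher and 5 (SLC25A12, SLC25A13, SLC25A32, SLC25A38 and SLC25A39) lower, with 22.6% and 17.9% of all genes. Between the subclones, 4 carriers (among them SLC25A3, SLC25A5 and SLC25A29) were higher in subclone 2 and 2 (SLC25A12 and SLC25A23) lower, with 11.5% and 8.47% of all genes.

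**Figure D3:**
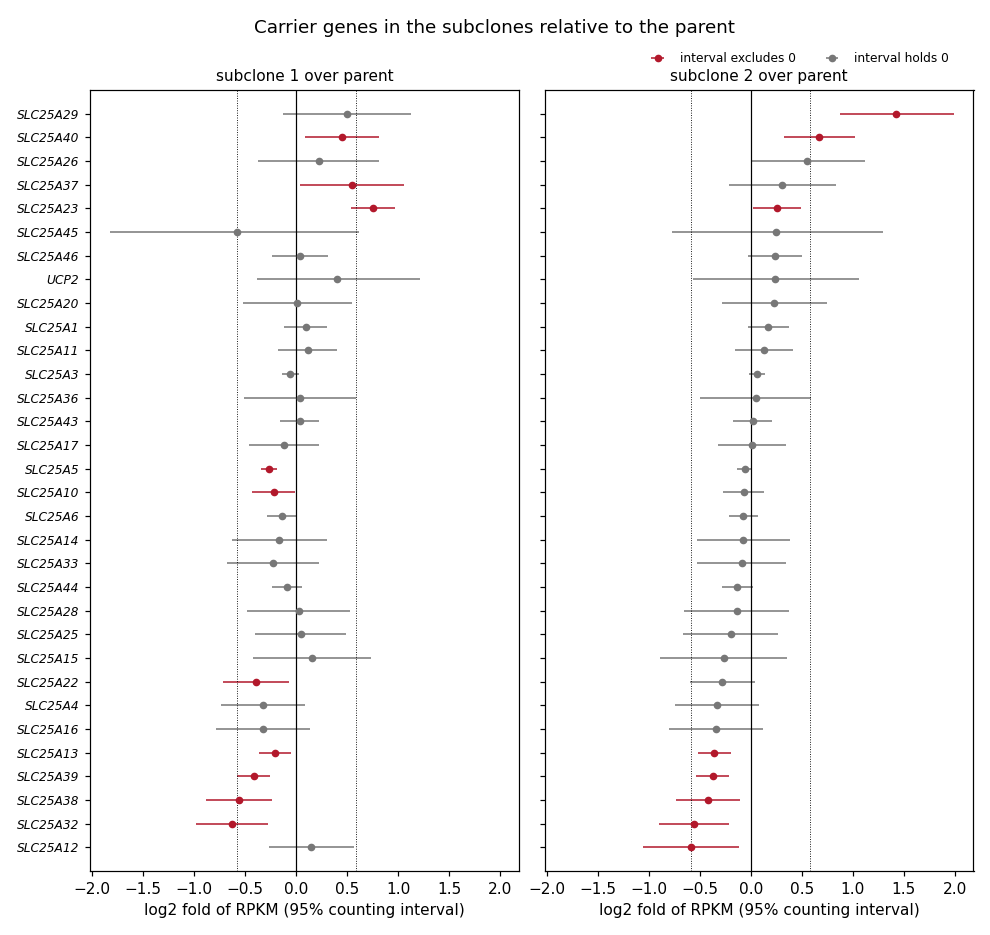
Log2 fold of RPKM over the parent for 32 carriers in subclone 1 (left) and subclone 2 (right), ordered by the ratio in subclone 2. Bars are exact 95% counting intervals, red where they exclude 0, and dotted lines mark 1.5-fold. SLC25A29 is at the top with a 2.67-fold level in subclone 2, and SLC25A12 at the bottom with 0.667-fold.

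SLC25A29, a carrier of basic amino acids such as arginine and lysine, had the largest ratio of the 33 carriers. Its level was 3.57 RPKM in parent cells (95% interval 2.53 to 4.90, 38 reads), 5.03 in subclone 1 (3.79 to 6.55, 55 reads) and 9.55 in subclone 2 (7.83 to 11.5, 107 reads). The interval of subclone 2 lay above both others, and those of the parent and subclone 1 overlapped. The fold was 2.67 in subclone 2 over the parent (1.83 to 3.98), which is a log2 ratio of 1.39 and percentile 97.1 of all genes, and 1.90 in subclone 2 over subclone 1 (1.36 to 2.68), at percentile 98.2. Subclone 1 over the parent gave 1.41 (0.915 to 2.19), a difference not detectable at this depth. The nearest genes on chromosome 14 that met the filter were not higher in subclone 2 than in the parent. Genes below the filter, which may lie between, were not examined. YY1, a transcription factor, was at 43.1, 39.6 and 39.9 RPKM in parent, subclone 1 and subclone 2. WARS, the cytosolic tryptophanyl-tRNA synthetase, was at 44.6, 32.3 and 34.8 RPKM. Farther out, EVL was at 6.25, 5.97 and 4.68 RPKM, EML1 at 3.29, 5.40 and 3.31 RPKM, WDR25 at 2.0, 1.84 and 2.49 RPKM and PPP2R5C at 21.2, 20.2 and 22.0 RPKM. The related ornithine carrier of the urea cycle, SLC25A15, was low, at 2.70 RPKM in parent cells (2.0 to 3.57), 3.01 in subclone 1 (2.27 to 3.91) and 2.25 in subclone 2 (1.63 to 3.04), and these intervals overlapped. SLC25A15 has 5 annotated pseudogenes, whose reads may be counted with it.

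The promoter of SLC25A29 is shown because its gene had the largest ratio, as the 250 bases before the RefSeq start on GRCh38.p14, chr14:100306445-100306694 on the minus strand, 5′ to 3′ along the gene. Capitals mark matches to the GC box GGGCGG and the CCAAT box CCAAT, searched on both strands, and 1 match of each lie side by side.
SLC25A29: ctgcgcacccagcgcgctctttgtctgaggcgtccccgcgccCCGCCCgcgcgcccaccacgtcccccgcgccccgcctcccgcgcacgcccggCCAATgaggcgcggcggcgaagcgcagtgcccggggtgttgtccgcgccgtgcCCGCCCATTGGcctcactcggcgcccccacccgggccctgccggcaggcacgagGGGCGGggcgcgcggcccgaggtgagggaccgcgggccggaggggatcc
The sequence holds 3 GC boxes and 2 CCAAT boxes and no match to the TATA box TATAAA.

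The glutathione carriers differed in opposite directions between the lines. SLC25A39 and SLC25A40 are related proteins that bring glutathione into mitochondria. SLC25A39, the more abundant of the pair, was at 98.1 RPKM in parent cells (91.1 to 106, 717 reads), 73.6 in subclone 1 (67.5 to 80.0, 552 reads) and 75.7 in subclone 2 (69.6 to 82.1, 582 reads). The parent was thus above both subclones, whose intervals overlapped, with folds of 0.750 (0.670 to 0.839) in subclone 1 and 0.771 (0.690 to 0.861) in subclone 2 over it. SLC25A40 was at 7.92 RPKM in parent cells (6.52 to 9.52, 112 reads), 10.8 in subclone 1 (9.18 to 12.6, 157 reads) and 12.6 in subclone 2 (10.9 to 14.6, 188 reads). The parent was the lowest library, and the fold was 1.37 in subclone 1 (1.06 to 1.76) and 1.59 in subclone 2 (1.26 to 2.03) over it. Between the subclones the fold of SLC25A40 was 1.17 (0.940 to 1.45). The summed level of the pair was 106 RPKM in parent cells, 84.4 in subclone 1 and 88.3 in subclone 2, since SLC25A39 held most of it. SLC25A39 has 2 annotated pseudogenes.

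SLC25A38, which brings glycine into mitochondria for the first step of heme synthesis, had the same order of libraries as SLC25A39. Its level was 20.7 RPKM in parent cells (17.9 to 23.8, 197 reads), 14.0 in subclone 1 (11.7 to 16.5, 137 reads) and 15.4 in subclone 2 (13.1 to 18.1, 155 reads). The fold over the parent was 0.677 in subclone 1 (0.541 to 0.846) and 0.747 in subclone 2 (0.602 to 0.927). The mitoferrins bring in the iron that heme synthesis and iron-sulfur cluster assembly use. SLC25A37, mitoferrin 1, was at 6.69 RPKM in parent cells (5.05 to 8.69), 9.77 in subclone 1 (7.79 to 12.1) and 8.28 in subclone 2 (6.49 to 10.4), with a fold of 1.46 in subclone 1 over the parent (1.03 to 2.09) and of 1.24 in subclone 2 (0.862 to 1.79). SLC25A28, mitoferrin 2, was at 9.42, 9.59 and 8.55 RPKM with overlapping intervals. Among the enzymes that use these substrates, ALAS1, which condenses glycine with succinyl-CoA, was at 41.5 RPKM in parent cells, 27.0 in subclone 1 and 33.3 in subclone 2. FECH, which inserts iron into heme, was at 6.81, 4.58 and 5.13 RPKM. For both enzymes the interval of the fold over the parent lay below 1 in both subclones, whereas NFS1, the cysteine desulfurase, was higher, with 1.21-fold (1.02 to 1.44) in subclone 1 and 1.30-fold (1.10 to 1.54) in subclone 2. Of the 5 heme and iron-sulfur genes examined, the interval excluded 1 below in 4 for subclone 1 and in 3 for subclone 2, and above in 1 for each, where 19% and 17.9% of all genes were lower and 19.9% and 22.6% higher.

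The promoters of SLC25A39 and SLC25A38 are shown because both genes were lower in the subclones than in the parent. They are the 250 bases before the RefSeq start on GRCh38.p14, chr17:44324824-44325073 on the minus strand and chr3:39383120-39383369 on the plus strand, 5′ to 3′ along the gene. Capitals mark the GC box GGGCGG in the first and the E-box CACGTG in the second, on either strand.
SLC25A39: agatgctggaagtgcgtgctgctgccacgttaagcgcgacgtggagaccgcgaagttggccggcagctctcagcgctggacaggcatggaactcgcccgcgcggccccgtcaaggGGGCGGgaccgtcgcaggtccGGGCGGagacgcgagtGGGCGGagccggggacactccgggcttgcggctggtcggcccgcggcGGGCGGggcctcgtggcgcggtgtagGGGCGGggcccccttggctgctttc
SLC25A38: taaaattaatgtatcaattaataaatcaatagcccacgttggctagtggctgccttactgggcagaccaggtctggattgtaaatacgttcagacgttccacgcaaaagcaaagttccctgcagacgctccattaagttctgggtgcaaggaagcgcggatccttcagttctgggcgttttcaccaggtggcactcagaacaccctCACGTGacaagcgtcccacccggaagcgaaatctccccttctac
The windows share no match to the motifs searched, with 5 GC boxes in SLC25A39 and 1 E-box in SLC25A38. Over the 35 carriers with a RefSeq promoter, the GC box was in 25 (71.4%, against 42.3% of 27305 promoters), CCAAT in 18 (51.4% against 33.0%) and the E-box in 5 (14.3% against 6.49%). The 27305 hold 1 promoter per RefSeq gene, listed in these libraries or not, and were not matched to the carriers by expression. The NRF1 core (GCGC, then any base, then TGCGC) was in 2 (5.71% against 5.53%), the cyclic AMP response element TGACGTCA in 3 (8.57% against 1.77%) and TATAAA in 3 (8.57% against 11.1%). These are matches of letters on either strand and not sites of binding.

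The ADP/ATP carriers, which export ATP from the matrix in exchange for ADP, held the largest share of carrier mRNA. SLC25A5 was at 505 RPKM in parent cells (487 to 523, 3063 reads), 420 in subclone 1 (404 to 437, 2617 reads) and 484 in subclone 2 (467 to 501, 3088 reads), above about 99 percent of genes in each library. Subclone 1 was the lowest, with a fold of 0.832 over the parent (0.789 to 0.877), and subclone 2 differed from the parent by 0.958-fold (0.911 to 1.01). SLC25A6 was at 119, 108 and 113 RPKM, with folds over the parent of 0.906 (0.819 to 1.00) and 0.951 (0.862 to 1.05). SLC25A4, the form that dominates in heart and skeletal muscle, was at 5.59 RPKM in parent cells (4.60 to 6.74), 4.47 in subclone 1 (3.60 to 5.48) and 4.45 in subclone 2 (3.59 to 5.46), and its intervals overlapped. The order SLC25A5, SLC25A6, SLC25A4 was the same in all 3 lines with no overlap of intervals between genes. SLC25A3, the phosphate carrier that supplies ATP synthase, was second in the family, at 291 RPKM (280 to 302), 280 RPKM (269 to 291) and 303 RPKM (292 to 315) in the parent, subclone 1 and subclone 2. Its fold was 1.08 in subclone 2 over subclone 1 (1.03 to 1.14), a small difference, from 2474 and 2748 reads.

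The coding sequences of these 3 genes are 894 bases long each, in GENCODE 29, and SLC25A5 and SLC25A6 share 78.7% of their bases, SLC25A4 and SLC25A5 77.2% and SLC25A4 and SLC25A6 77.9%. A stretch of SLC25A5 and SLC25A6 is shown because reads can tell the pair apart only where bases differ. It runs from position 55 to 144 of the coding sequence, and capitals mark the bases that differ.
SLC25A5: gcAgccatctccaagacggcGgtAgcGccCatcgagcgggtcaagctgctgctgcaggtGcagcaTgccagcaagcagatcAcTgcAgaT
SLC25A6: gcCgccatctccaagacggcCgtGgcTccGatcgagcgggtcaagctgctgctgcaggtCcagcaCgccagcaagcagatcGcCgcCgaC
Of these 90 bases 11 differ, 10 of them at the last base of a codon, and the longest run that the pair shares anywhere is 29 bases. SLC25A5 has 9 annotated pseudogenes and SLC25A6 has 6, and how reads that match several copies were counted is not given in the sources used here, so the RPKM of both genes are uncertain to that extent.

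The aspartate/glutamate carriers belong to the malate-aspartate shuttle, and SLC25A13, citrin, is the form of liver. SLC25A13 was at 50.3 RPKM in parent cells (46.7 to 54.1, 724 reads), 43.6 in subclone 1 (40.3 to 47.1, 645 reads) and 39.3 in subclone 2 (36.2 to 42.6, 595 reads). It was lower in both subclones, with 0.868-fold (0.779 to 0.966) and 0.781-fold (0.699 to 0.871) the level of the parent, and subclone 2 was at 0.900-fold of subclone 1 (0.804 to 1.01). SLC25A12, aralar, the form of brain and muscle, was far lower, at 5.24 RPKM in parent cells (4.24 to 6.41, 94 reads), 5.81 in subclone 1 (4.76 to 7.02, 107 reads) and 3.50 in subclone 2 (2.70 to 4.45, 66 reads). Subclone 2 was the lowest library, with 0.667-fold of the parent (0.479 to 0.924) and 0.602-fold of subclone 1 (0.436 to 0.825, log2 ratio -0.72). The glutamate carrier SLC25A22 was at 13.4, 10.2 and 11.1 RPKM, with 0.762-fold in subclone 1 over the parent (0.606 to 0.955) and 0.823-fold in subclone 2 (0.659 to 1.03), and its relative SLC25A18 was listed with 3 reads in subclone 1 and 2 in subclone 2. SLC25A18 had 0 reads in the parent, which allows a level of up to 0.320 RPKM. The oxoglutarate/malate exchanger of the same shuttle, SLC25A11, was at 23.4, 25.2 and 25.6 RPKM with overlapping intervals. Of the 4 shuttle enzymes, 1 (MDH2) was higher by its interval in both subclones over the parent, against 19.9% and 22.6% of all genes. In each subclone 1 was lower, GOT2 in subclone 1 and MDH1 in subclone 2, against 19% and 17.9%. MDH2, the mitochondrial malate dehydrogenase, was at 257, 295 and 352 RPKM, with 1.15-fold (1.07 to 1.23) and 1.37-fold (1.28 to 1.47) over the parent. GOT2, the mitochondrial aspartate aminotransferase, was at 61.2, 53.5 and 55.9 RPKM, GOT1 at 14.1, 12.7 and 13.6 RPKM and MDH1, the cytosolic form, at 72.5, 73.9 and 61.6 RPKM.

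The citrate carrier SLC25A1 sends citrate to the cytosol, where ACLY splits it for fatty acid synthesis. It was at 50.6 RPKM in parent cells (45.6 to 56.0), 54.0 in subclone 1 (48.8 to 59.5) and 57.0 in subclone 2 (51.7 to 62.6), with folds of 1.07 (0.924 to 1.23) and 1.13 (0.977 to 1.30) over the parent, so that no difference was detectable. SLC25A1 has 5 annotated pseudogenes. The dicarboxylate carrier SLC25A10 was at 46.0, 39.5 and 43.8 RPKM, with 0.858-fold in subclone 1 over the parent (0.742 to 0.992) and 0.952-fold in subclone 2 (0.828 to 1.10). SLC25A21, the oxodicarboxylate carrier of lysine and tryptophan breakdown, had 7, 3 and 1 reads, too few for the comparisons. The enzymes around citrate export stood apart from the carrier: CS, citrate synthase, was at 165, 137 and 138 RPKM, ACLY at 98.1, 89.8 and 83.8 RPKM and ME1, the cytosolic malic enzyme, at 77.2, 42.9 and 49.6 RPKM. For these 3 of the 4 enzymes examined the interval lay below 1 in both subclones over the parent, which 13.3% of all genes met. ME1 was at 0.556-fold (0.505 to 0.610) and 0.642-fold (0.587 to 0.702). ACLY, with many reads, met it at 0.916-fold (0.859 to 0.976) in subclone 1.

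The carnitine carrier SLC25A20 exchanges acylcarnitines for carnitine in fatty acid oxidation. Its level was 7.0 RPKM in parent cells (5.34 to 9.01), 7.05 in subclone 1 (5.40 to 9.03) and 8.20 in subclone 2 (6.44 to 10.3), and all intervals overlapped. SLC25A45, a sequence relative, was at 1.56 RPKM in parent cells (16 reads), 1.04 in subclone 1 (11 reads) and 1.85 in subclone 2 (20 reads), and its 1.77-fold between the subclones had an interval from 0.810 to 4.10. Of 3 carnitine enzymes that met the filter, the interval lay above 1 in 1 for subclone 1 and in 2 for subclone 2, and below 1 in 0. Over all genes it lay above 1 in 19.9% and 22.6%, and below 1 in 19% and 17.9%. CRAT, carnitine acetyltransferase, was higher in both subclones, at 8.79, 16.2 and 18.4 RPKM, with 1.84-fold (1.46 to 2.34) and 2.09-fold (1.67 to 2.64) over the parent. CPT1A, which makes acylcarnitines at the outer membrane, was at 24.7, 28.4 and 30.0 RPKM, and CPT2 at 5.80, 5.58 and 7.69 RPKM.

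The carriers of nucleotides and cofactors counted 8 genes, 7 of which met the filter. SLC25A32, which imports folate and FAD, was at 25.4 RPKM in parent cells (21.7 to 29.4, 173 reads), 16.4 in subclone 1 (13.6 to 19.7, 115 reads) and 17.3 in subclone 2 (14.4 to 20.6, 124 reads). The parent was above both subclones, with 0.647-fold (0.507 to 0.824) and 0.681-fold (0.536 to 0.863). SLC25A26, which carries S-adenosylmethionine, was at 3.82, 4.44 and 5.59 RPKM, and 1.47-fold in subclone 2 over the parent (0.998 to 2.17). The pyrimidine nucleotide carriers SLC25A33 and SLC25A36 were at 13.6, 11.6 and 12.8 RPKM and at 2.72, 2.78 and 2.81 RPKM, the peroxisomal carrier SLC25A17 at 14.5, 13.3 and 14.6 RPKM and SLC25A16 at 8.76, 6.99 and 6.92 RPKM. None of these 4 had an interval of the fold over the parent that excluded 1. SLC25A42, the coenzyme A carrier, had 5, 9 and 10 reads. Summed over the 8 genes the level was 76.4 RPKM in parent cells, 59.8 in subclone 1 and 66.5 in subclone 2.

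The ATP-Mg/phosphate carriers are controlled by calcium and adjust the adenine nucleotide pool of the matrix. SLC25A23 was at 17.6 RPKM in parent cells (15.6 to 19.8, 275 reads), 29.7 in subclone 1 (27.1 to 32.5, 476 reads) and 21.1 in subclone 2 (18.9 to 23.4, 346 reads). Subclone 1 lay above both other lines, at 1.69-fold of the parent (1.45 to 1.96), and subclone 2 was at 1.20-fold (1.02 to 1.41). Subclone 2 was at 0.709-fold of subclone 1 (0.616 to 0.816), which was percentile 5.64 of all genes. SLC25A25 of the same group was at 5.45, 5.62 and 4.75 RPKM, with overlapping intervals, so that the 1.53-fold sum of the pair in subclone 1 over the parent came from SLC25A23. SLC25A24 had no row and was not analysed here.

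The uncoupling proteins, named after the heat-making UCP1 of brown fat, were at 11.7 RPKM or lower. UCP2, which is found in many tissues, was at 3.38 RPKM in parent cells (2.19 to 4.99, 25 reads), 4.48 in subclone 1 (3.10 to 6.26, 34 reads) and 3.99 in subclone 2 (2.71 to 5.66, 31 reads). SLC25A14, also called UCP5, was at 11.7, 10.4 and 11.1 RPKM. For neither gene did any of the 3 folds have an interval that excluded 1. UCP3, the form of skeletal muscle, had 1 read in subclone 1 and 0 in the parent and in subclone 2, which allows up to 0.275 and 0.261 RPKM. SLC25A27, also called UCP4 and known from brain, had 7, 8 and 5 reads and SLC25A30 had 5, 5 and 7 reads. The 5 genes summed to 16.2 RPKM in parent cells, 16.2 in subclone 1 and 16.3 in subclone 2.

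The remaining carriers differed little. SLC25A44, which transports branched-chain amino acids, was at 46.0 RPKM in parent cells (42.8 to 49.4), 43.2 in subclone 1 (40.1 to 46.4) and 42.0 in subclone 2 (39.0 to 45.2). SLC25A43, whose substrate is not assigned here, was at 38.0, 38.9 and 38.5 RPKM, and the 3 folds lay between 0.990 and 1.02. SLC25A46, an outer membrane member linked to mitochondrial shape, was at 20.3, 20.9 and 23.9 RPKM. SLC25A35 had 8, 13 and 12 reads and SLC25A34 had 1, 2 and 2 reads, below the filter. The files name 5 further members of the family otherwise. MTCH1 was at 47.3, 58.1 and 57.3 RPKM, with 1.23-fold (1.08 to 1.40) and 1.21-fold (1.06 to 1.39) over the parent, and MTCH2, an outer membrane insertase, at 51.0, 52.4 and 44.0 RPKM, with 0.862-fold in subclone 2 over the parent (0.766 to 0.969). MCART1, now known as the NAD carrier of mitochondria, was at 4.49, 5.30 and 4.66 RPKM, and MCART2 and MCART6 were at or below 0.188 RPKM in every library.

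Several genes of the import machinery that brings carriers to the inner membrane were lower in the subclones. Of 13 symbols looked for, 10 were listed and met the filter. Among these 10 the interval of the fold lay below 1 in 5 for subclone 1 and 6 for subclone 2, and above 1 in 0. The shares of all genes below 1 were the 19% and 17.9% given above. By the 1.5-fold threshold, 0 of the 10 were lower in subclone 1 and 1 (TIMM22) in subclone 2, against 7.46% and 7.3% of all genes. The median log2 ratio of the 10 was -0.27 in subclone 1 and -0.25 in subclone 2 over the parent, beside 0.00 and 0.04 for all genes. TOMM40, the channel of the outer membrane, was at 90.0 RPKM in parent cells (735 reads), 60.1 in subclone 1 (504 reads) and 62.6 in subclone 2 (538 reads), with 0.668-fold (0.595 to 0.749) and 0.695-fold (0.621 to 0.778). TOMM70A, the receptor that recognises carrier precursors, was at 59.4, 39.9 and 40.3 RPKM, with 0.671-fold (0.590 to 0.764) and 0.679-fold (0.598 to 0.772). TOMM20 was at 71.9, 61.2 and 62.7 RPKM and TOMM22 at 59.2, 48.0 and 48.8 RPKM, and their intervals also lay below 1 in both. Of the small chaperones between the membranes, TIMM10 was at 0.687-fold in subclone 1 (0.525 to 0.896) and 0.861-fold in subclone 2 (0.671 to 1.10), and TIMM9 at 0.838-fold (0.668 to 1.05) and 0.790-fold (0.628 to 0.992). TIMM22, the inner membrane channel for carriers, was at 18.4, 16.5 and 12.1 RPKM, with 0.897-fold (0.701 to 1.15) and 0.658-fold (0.503 to 0.859). AGK, FXC1 and C19orf52, further parts of the inner membrane complex, had intervals that held 1.

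**Figure D4:**
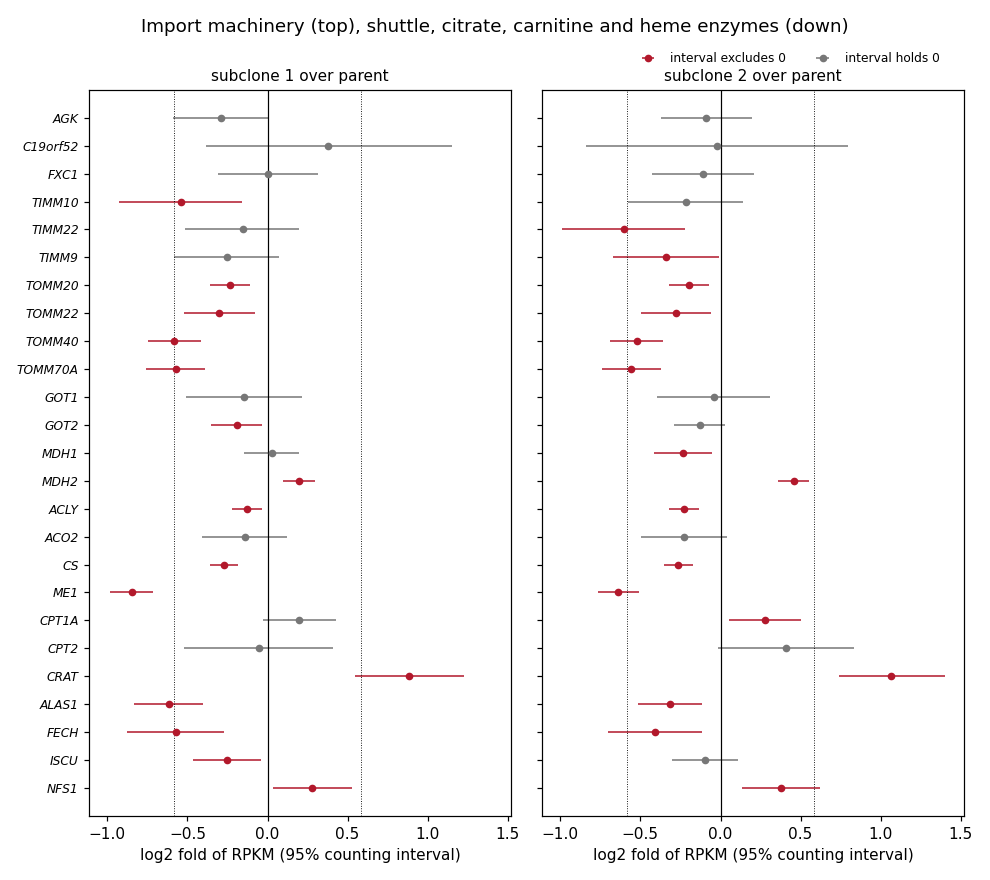
Log2 fold of RPKM over the parent for genes that work with the carriers, in subclone 1 (left) and subclone 2 (right): 10 of the import machinery at the top, then the shuttle, citrate, carnitine and heme genes. Bars are exact 95% counting intervals, red where they exclude 0, and dotted lines mark 1.5-fold. TOMM40 and TOMM70A are near 0.7-fold in both panels, ME1 is the lowest point at 0.556-fold in subclone 1, and CRAT the highest at 2.09-fold in subclone 2.

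Other transporters of the inner membrane, outside the family, were examined beside it, and 13 of the 17 symbols looked for were listed and met the filter. For subclone 1 over the parent, the interval was above 1 in 1 and below 1 in 2 of them, and in subclone 2 in 3 and 1, and for these and the lists that follow the shares of all genes were 19.9% above and 19% below in subclone 1 and 22.6% and 17.9% in subclone 2. LETM1, a cation exchanger, was at 14.6, 10.8 and 11.4 RPKM, with 0.737-fold (0.627 to 0.866) and 0.783-fold (0.669 to 0.916). The mitochondrial pyruvate carrier is made of BRP44 and BRP44L, and BRP44 was at 30.2, 33.8 and 42.2 RPKM, with 1.40-fold in subclone 2 (1.21 to 1.62), and BRP44L at 11.6, 14.0 and 11.9 RPKM. SFXN4, of the sideroflexin family, was at 15.3, 8.06 and 9.98 RPKM, with 0.527-fold in subclone 1 (0.314 to 0.867). Of the 4 outer membrane channel genes, 0 were higher and 1 lower in subclone 1 by their intervals, and 1 higher and 1 lower in subclone 2. VDAC1, the most abundant, was at 166, 164 and 161 RPKM and VDAC3 at 59.2, 50.5 and 48.2 RPKM. Among 6 regulators of mitochondrial genes that met the filter, 2 were higher and 2 lower in subclone 1, and 3 higher and 1 lower in subclone 2. TFAM, which packs and transcribes mitochondrial DNA, was at 31.4, 20.6 and 22.3 RPKM, with 0.656-fold (0.541 to 0.794) and 0.710-fold (0.589 to 0.854). PPARA, a receptor that drives fatty acid oxidation genes in liver, was at 2.15, 5.48 and 6.04 RPKM, with 2.55-fold (2.01 to 3.26) and 2.81-fold (2.23 to 3.58), and ESRRA was 1.44-fold higher in subclone 2 (1.20 to 1.73).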

How the data were processed

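Total RNA of 3 cultured lines was sequenced, with 1 library each, after Trizol extraction and TruSeq library preparation. The authors deposited RPKM per gene, by Entrez number and symbol, and the submitters' processing notes name hg19. The aligner, the annotation, the counting tool and the use of strand are not given in the sources used here. Genes missing from a file were set to 0. Whole reads and totals were recovered from the steps of the RPKM (tolerance of 0.002 reads), with 90.1% of 2544 low genes on a whole length, and lengths were checked against GENCODE 29 transcripts, within 10% for 31 of 41 carriers. Where the reads of a gene in all libraries have a common factor they may be too low, and their intervals too wide. Intervals were exact at 95% (Poisson for levels, Clopper-Pearson for folds), and limits for 0 used 3 reads. They cover counting error only, because PCR copies are not told apart. Ratios used a pseudocount of 0.1 RPKM and genes with a mean of at least 1 RPKM, and folds none. The recovery of reads was tested on simulated data. Named carriers were the 8 most abundant, those 1.5-fold apart in any comparison and whole role groups, by fixed lists, with partners described by counts and examples. The members and lists were chosen with earlier results of these data known. The neighbours of SLC25A12 and SLC25A40 were chosen after their values were seen. Alternatives were pseudocounts of 0.01 and 1, 5 scalings, filters and 2-fold. Promoters came from RefSeq and coding sequences from GENCODE, both on GRCh38. Proteins were not used here. Some genes counted in these lists are not reported by name or drawn. Python 3.11.15, numpy 2.4.6, pandas 2.3.3, scipy 1.17.1, Biopython 1.88 and matplotlib 3.10.9 were used.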

Additional observations from a re-analysis of the deposited data

Results flagged for a closer look

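For 2 carriers that met the filter, the point values of the subclones lay on opposite sides of the parent and at least 1.5-fold apart. The difference between them was not tested, and the share of all genes that met this rule was not counted. The log2 ratio of SLC25A12 in subclone 2 over subclone 1 was -0.72, from 5.24 RPKM in parent cells, 5.81 in subclone 1 and 3.50 in subclone 2. Its fold in subclone 1 over the parent was 1.11, with an interval from 0.832 to 1.48 that held 1. The log2 ratio of SLC25A45 was 0.77, from 16 reads in parent cells, 11 in subclone 1 and 20 in subclone 2, and the interval of its fold between the subclones, from 0.810 to 4.10, held 1. So did the intervals of its folds over the parent, 0.669 (0.281 to 1.54) in subclone 1 and 1.19 (0.585 to 2.45) in subclone 2.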

How the results depend on the processing

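Of 693 log2 ratios of single carriers under alternatives, 687 stayed within their counting interval. The other 6 were ratios of SLC25A3 and SLC25A5, moved by division by ACTB or GAPDH. Among ratios whose interval excluded 1 as a fold, 0 changed sign. Sign changes of the other ratios, many of them near 0, were not counted. Of 87 counts and medians, 69 stayed close and 18 moved. In subclone 1 over the parent, the carriers at least 1.5-fold lower became 4 with ACTB and 4 with GAPDH, while those of all genes went from 848 to 1319 and 1029, and the median became -0.19 with ACTB. Without the filter the higher ones became 6 and the median 0.025, since genes of few reads enter, and at 2-fold there were 0 higher and 0 lower. In subclone 2 over the parent, lower carriers were 1 after scaling to the same RPKM sum, 2 after centring on the median and 2 by upper quartile. Without the filter 5 were higher and 1 lower, and at 2-fold 1 was higher. The 2 higher carriers stayed 2 under centring and upper quartile, so the share of higher among called carriers went from 100% to 50%, and that of all genes from 63.5% to 58.6% and 58.8%. In subclone 2 over subclone 1, higher carriers became 1 with a pseudocount of 1 RPKM. Lower ones became 3 without the filter and 0 at a mean of at least 5 RPKM, and at 2-fold there were 0 and 0. Apart from the filter and the fold, the cause was not tested.

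Division by ACTB shifted the median of all genes by -0.13 in subclone 1 over the parent and by 0.12 between the subclones, and GAPDH by 0.12 between the subclones. The share of higher among all called genes then went from 60.8% to 42.7% with ACTB in subclone 1 over the parent, and from 53.6% to 71.4% with ACTB and 70.0% with GAPDH between the subclones. No paired analysis was possible because each line had 1 library. No library could be left out for the same reason. Depth limits the 8 carriers below the filter, with at most 13 reads in a library, and intervals leave out the variation between cultures.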

Other observations

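Neighbours of carriers along the chromosome, chosen after their values were seen, are given as values. Only genes that met the filter were taken, so lower genes may lie between those named. Neighbours of other carriers were also listed, and apart from those of SLC25A29 they are not given here. On chromosome 7, the nearest gene that met the filter on one side of SLC25A40 was ABCB1, the drug efflux pump P-glycoprotein. ABCB1 was at 2.74 RPKM in parent cells, 9.33 in subclone 1 and 18.0 in subclone 2. The fold of ABCB1 over the parent was 3.41 (2.53 to 4.65) and 6.58 (4.99 to 8.83), and that of SRI, which encodes the calcium-binding protein sorcin, was 1.58 (1.33 to 1.90) and 1.62 (1.36 to 1.93). DBF4, the nearest such gene on the other side of SLC25A40, was at 0.946-fold (0.833 to 1.07) and 0.896-fold (0.789 to 1.02). ABCB4, the next such gene after ABCB1, was at 0.487-fold (0.193 to 1.14) and 2.69-fold (1.55 to 4.90). Farther out, CROT was at 1.56-fold (1.03 to 2.37) and 1.26-fold (0.819 to 1.95), and DPY19L2P4 at 1.20-fold (0.604 to 2.43) and 0.671-fold (0.292 to 1.49).

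On chromosome 2, all 6 neighbours of SLC25A12 examined were below the parent in subclone 2. The interval excluded 1 in each except METAP1D, a mitochondrial methionine aminopeptidase with 0.679-fold (0.270 to 1.64), while 17.9% of all genes were lower by their intervals. Because these neighbours were picked for their values, the shares of all genes given here are not a fair comparison for them. METTL8, an RNA methyltransferase, was at 5.05 RPKM in parent cells, 2.66 in subclone 1 and 1.84 in subclone 2. HAT1, a histone acetyltransferase, was at 66.8, 55.5 and 44.2 RPKM, and ITGA6, an integrin subunit, at 78.4, 55.5 and 59.4 RPKM. In subclone 1 over the parent SLC25A12 was at 1.11-fold (0.832 to 1.48), and METTL8 at 0.526-fold (0.408 to 0.675). DCAF17 was at 0.678-fold (0.532 to 0.861) and DYNC1I2 at 0.876-fold (0.773 to 0.992) in that comparison. HAT1 was at 0.831-fold (0.729 to 0.947), ITGA6 at 0.708-fold (0.662 to 0.758) and METAP1D at 0.626-fold (0.239 to 1.55). Of all genes, 19% were lower by their intervals there.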
